A study of Mus musculus with 2 samples.

Results

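The genes of molecular chaperones and of protein folding enzymes were examined in total RNA of mouse liver. Members were chosen by symbol: the heat shock protein genes (Hsp), the J protein genes (Dnaja, Dnajb, Dnajc), the protein disulfide isomerase genes (Pdia and P4hb), the FK506-binding proteins (Fkbp), the cyclophilins Ppia to Ppif, the numbered subunits of the chaperonin CCT, and Calr and Canx. The array named 1 gene for 105 probe sets of this kind, covering 78 of the 8251 named genes. By the place where their products work, 45 belong to the cytosol and nucleus, 20 to the endoplasmic reticulum (ER), 7 to mitochondria and 6 to other places. No probe set with the single gene Ppia was on the list, and Ppia is treated with the other probe sets of several genes at the end.

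Both samples were total liver RNA bought under the same catalogue number, and they were read on 1 array each. They carry no treatment and form 1 group, liver, with replicates 1 and 2. Titles and description name liver, whereas the source field names spleen. The labels give no strain, sex, age or number of animals, so a difference between the 2 arrays may be technical only, and no test between groups was possible.

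A chaperone binds unfolded or partly folded protein and releases it in cycles that are mostly driven by ATP. Hsp70 proteins do this with J proteins, which bring clients and start ATP hydrolysis, and Hsp90 proteins and the ring-shaped chaperonins act on later intermediates. In the ER, lectin chaperones hold glycoproteins, disulfide isomerases pair cysteines, and prolyl isomerases turn peptide bonds at proline. Hepatocytes secrete most plasma proteins through this compartment and are rich in mitochondria, which import and refold nearly all of their proteins.

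The labelled tissue was checked against marker genes. All 12 hepatocyte genes were above background on both arrays, and their signals summed to 294397 on replicate 1 and 309374 on replicate 2. Of 12 measured B and T cell genes, 0 were above background on both arrays, with sums of 1432 on replicate 1 and 1752 on replicate 2. Of 8 measured Kupffer cell and macrophage genes 6 were above it, and of 5 plasma cell genes 1 was, the syndecan gene Sdc1, which hepatocytes also make. All 4 measured genes of the exocrine pancreas were above it: the trypsinogen gene Prss2 (8217 on replicate 1 and 8127 on replicate 2), the elastase genes Cela1 (4794 and 5091) and Cela2a (692.7 and 927.2), and the lipase gene Cel (4192 and 3867). The signals of these 4 summed to 17896 on replicate 1 and 18012 on replicate 2, and none was at 0. Pancreatic acinar cells are rich in ER folding proteins, so these values stand beside every ER signal below. Their part in those signals was not tested. In bulk RNA, fewer cells of a type and less RNA per cell cannot be told apart.

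A gene was called above background when its brightest probe set exceeded, on both arrays, the 95th percentile of a panel of 82 genes typical of nervous tissue, eye, testis or striated muscle. That threshold lay at 472.9 on replicate 1 and at 386.0 on replicate 2. Of the 78 chaperone genes 44 (56.4%) were above it, against 31.3% of all named genes. Another 3 passed on 1 array only, and 31 on neither. The median chaperone gene stood at percentile 72.6 of the array's signal, on a scale whose middle is 50 for all named genes. By compartment, 14 of 20 ER genes, 6 of 7 mitochondrial genes, 22 of 45 genes of the cytosol and nucleus, and 2 of 6 genes of other places were above background. The threshold was also set at the 99th percentile of the same panel. Above it were 10 of 20 ER genes and 4 of 7 mitochondrial genes. In the remaining places, 13 of 45 genes of the cytosol and nucleus and 1 of 6 genes of other places were above it. The share of all named genes above that higher threshold was not counted, and the 31.3% belongs to the 95th percentile. The median percentiles by compartment were 78.1 for the ER, 89.7 for mitochondria, 62.9 for cytosol and nucleus, and 62.9 for other places. Probe brightness depends on probe sequence, so a percentile gives the place of a probe set in the array's signal and does not rank transcripts.

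**Figure D1:**
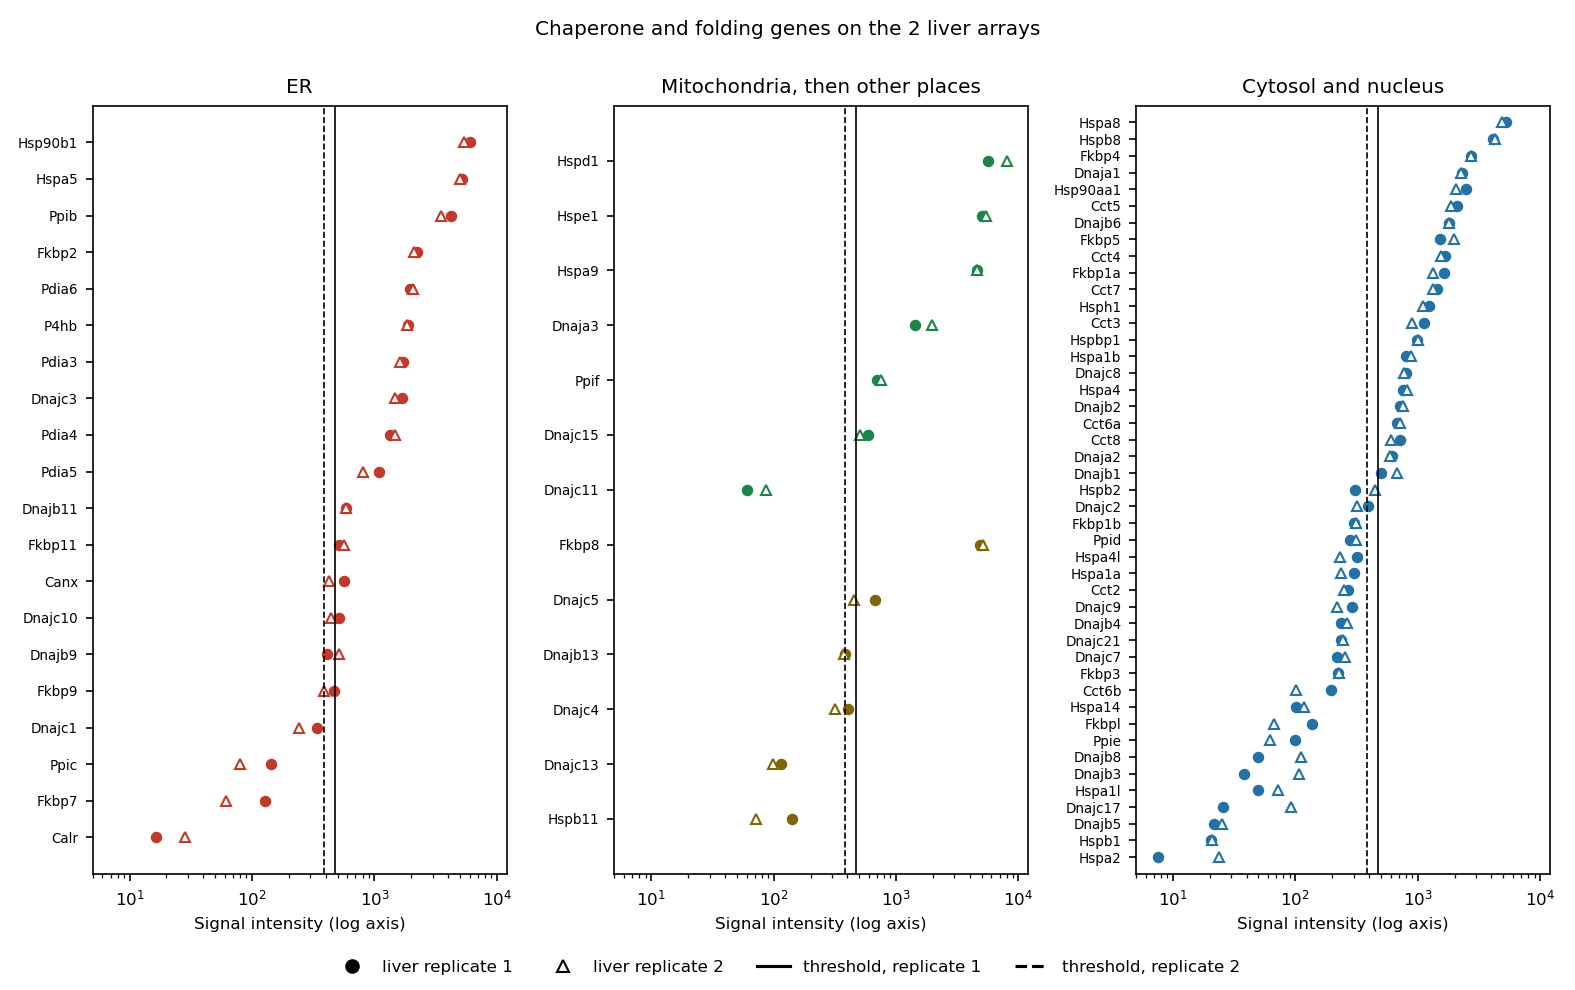
Signal intensity (log axis) of the 78 chaperone genes, each read from its brightest probe set, on liver replicate 1 (filled circles) and replicate 2 (open triangles), in panels for the ER, for mitochondria (green) followed by other places (brown), and for the cytosol and nucleus. Vertical lines mark the background thresholds of 472.9 (replicate 1, solid) and 386.0 (replicate 2, dashed). Above the threshold of each array were 14 of the 20 ER genes, 6 of the 7 mitochondrial genes, 2 of the 6 genes of other places and 22 of the 45 genes of the cytosol and nucleus.

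Hsp90b1 and Hspa5, the Hsp90 and Hsp70 proteins of the ER, were at the bright end of both arrays. Hsp90b1, the ER member of the Hsp90 family (GRP94), gave 6018 on replicate 1 and 5383 on replicate 2 (5700 ± 448.9, SD, n = 2). Hspa5, the ER Hsp70 known as BiP, gave 5153 and 5021 (5087 ± 93.6). They stood at percentiles 96.8 and 96.5, and the arrays differed by a factor of 1.12 for Hsp90b1 and 1.03 for Hspa5.

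The J proteins that partner BiP were spread around the threshold. Dnajc3, the p58IPK co-chaperone, gave 1683 on replicate 1 and 1470 on replicate 2 from its brightest set. Dnajb11 (ERdj3), which binds unfolded clients directly, gave 584.2 and 586.0, and Dnajc10 (ERdj5), which reduces disulfide bonds, gave 513.1 and 442.2. These 3 were above background. Dnajb9 (ERdj4), a stress-induced member, gave 413.3 on replicate 1 and 514.1 on replicate 2 and passed on replicate 2 only. Dnajc1, an ER membrane J protein, gave 340.2 and 240.1 and passed on neither.

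All 5 disulfide isomerase genes were above background. Pdia6 gave 1957 on replicate 1 and 2063 on replicate 2, and P4hb, the classical disulfide isomerase PDI, gave 1892 and 1859. Pdia3 (ERp57), which works on glycoproteins held by the lectin chaperones, gave 1715 and 1608. Pdia4 (ERp72) gave 1331 and 1472, and Pdia5 gave 1082 and 800 (940.6 ± 199.3, SD, n = 2). Their percentiles ran from 82.7 to 91.5. The value of P4hb came from a set of suffix r, a letter that marks probes chosen with relaxed design rules, and its plain set gave 208.2 on replicate 1 and 133.7 on replicate 2, below background on both.

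Of the ER prolyl isomerases, Ppib (cyclophilin B), a partner in collagen folding, gave 4243 on replicate 1 and 3515 on replicate 2. Fkbp2 gave 2231 and 2090, and Fkbp11, a membrane-anchored isomerase, gave 515.2 and 563.9. Fkbp9 gave 464.8 and 386.4 and passed on replicate 2 only. Ppic, at 142.7 and 80.1, and Fkbp7, at 127.6 and 61.8, passed on neither array.

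Of the lectin chaperones that hold newly made glycoproteins, Canx was above background and Calr was not. Canx, calnexin, gave 568.5 on replicate 1 and 429.2 on replicate 2, both from the brighter set, at percentile 69.3, and 128.8 and 126.5 from the other. Calr, calreticulin, its soluble counterpart, was read from 1 plain probe set that gave 16.4 and 28.4, at percentile 7.85, the lowest of the 20 ER genes. A set this dim does not show that the transcript was absent.

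Sequences upstream of these genes were searched for the ER stress element. Through this site ATF6 and its partner NF-Y are known to induce ER chaperones in mammals. Since the element is known from ER chaperone genes, Hspa5 among them, its shares below describe the sequences and test nothing. The windows were those of RefSeq on GRCm38.p6, running from 250 bases before to 50 bases after each gene start, and 67 of the 78 genes matched one. Those of Cct4, Dnajc11, Dnajc2, Dnajc5, Hsp90aa1, Hspa8, Hspa9, Hspb2, Ppic, Ppid and Ppie were not used here. The letters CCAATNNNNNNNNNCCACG were sought on both strands. They occurred in 6 of 19 ER genes (31.6%), in 0 of 38 genes of the cytosol and nucleus, in 0 of 5 mitochondrial genes and in 0 of 5 genes of other places, against 37 of all 27025 genes with a window (0.137%). The same search covered ER genes outside the symbol rule, from lists described below. The letters occurred in 0 of 12 other ER folding factors with a window. They occurred in 1 of 10 genes of ER degradation and translocation, Syvn1, and in 0 of 7 ER stress sensors and factors. A match is a description of the sequence and not evidence of a bound site. Each site of the 6 ER chaperone genes is shown because it is the feature they share. The sites are given in the direction of the element, with the fixed letters in capitals.
Hspa5: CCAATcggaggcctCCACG
Hsp90b1, site 1: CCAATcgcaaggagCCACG
Hsp90b1, site 2: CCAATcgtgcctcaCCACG
Calr: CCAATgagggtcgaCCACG
Canx: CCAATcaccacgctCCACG
Pdia6: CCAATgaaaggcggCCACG
Dnajc3: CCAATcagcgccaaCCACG

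The sites lay at chr2:34772025-34772043 (+ strand) for Hspa5, chr10:86705638-86705656 (- strand) and chr10:86705533-86705551 (+ strand) for Hsp90b1, and chr8:84847075-84847093 (+ strand) for Calr. Those of the others lay at chr11:50325800-50325818 (- strand) for Canx, chr12:17266491-17266509 (+ strand) for Pdia6 and chr14:118937827-118937845 (+ strand) for Dnajc3. Among these genes only Hsp90b1 had more than 1 site, and its site 2 ran against the direction of the gene, as did the site of Calr. The gene with the element nearest its start was Hspa5, whose site began 65 bases and ended 47 bases before it. The 250 bases before the start of Hspa5 (chr2:34771840-34772089, + strand) are shown whole because that gene is the usual reference for the element, and the capitals mark its fixed letters.
Hspa5 upstream: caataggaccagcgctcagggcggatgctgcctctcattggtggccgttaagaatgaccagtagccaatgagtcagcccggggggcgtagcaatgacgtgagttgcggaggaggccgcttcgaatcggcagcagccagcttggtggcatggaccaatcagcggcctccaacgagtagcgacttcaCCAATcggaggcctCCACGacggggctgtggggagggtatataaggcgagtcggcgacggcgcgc

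Signal and element did not go together in every gene. Of the 6 ER genes with the element, Hsp90b1, Hspa5, Pdia6, Dnajc3 and Canx were above background and Calr was not, and the median percentile of the 6 was 90.3. Of the 13 ER genes with a window and without the element, 9 were above background, and percentiles ran from 30.1 to 95.2 around a median of 73.5.

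**Figure D2:**
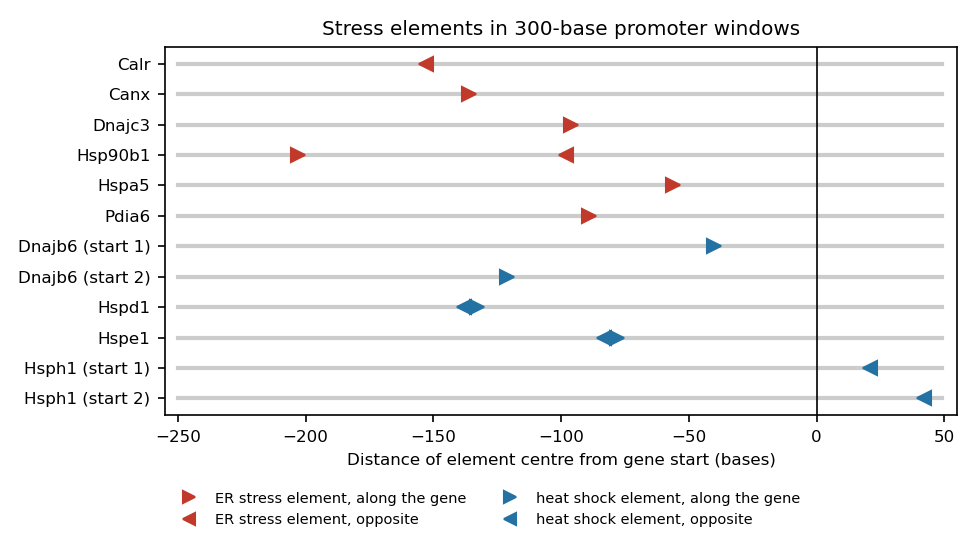
Distance of the centre of each stress element from the gene start (bases, x axis; the vertical line marks the start) in the 10 chaperone genes whose promoter window held one, with a grey bar for each window and a second bar where RefSeq gives the gene a second start whose window also holds it. Red arrowheads are ER stress elements, found in 6 ER genes, and blue arrowheads are heat shock elements, found in 4 other genes; arrowheads pointing right run along the gene.

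In mitochondria the matrix folding machines were bright. Hspd1, the chaperonin Hsp60, gave 5648 on replicate 1 and 8131 on replicate 2 (6889 ± 1755, SD, n = 2), and its second set, of suffix r, gave 95.8 and 237.3. Hspe1, the Hsp10 lid of the same chaperonin, gave 5060 and 5390 (5225 ± 233.1). Hspa9, the matrix Hsp70 that also pulls proteins in during import, gave 4598 and 4607. These 3 genes stood at percentiles 97.4, 96.6 and 96.1. Hspd1 had the highest percentile of the 78 chaperone genes, but its first place depended on the array. Replicate 2 put Hspd1 first, whereas on replicate 1 Hsp90b1 was brighter, at 6018 against 5648 for Hspd1.

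Among their partners, Dnaja3, the matrix J protein, gave 1425 on replicate 1 and 1968 on replicate 2. Ppif, cyclophilin D, which regulates the permeability transition pore, gave 703.9 and 756.2. Dnajc15, a J protein of the inner membrane import motor, gave 589.5 and 504.8. Dnajc11 gave 60.5 and 86.5 and was the single mitochondrial gene that was not above background.

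Hspd1 and Hspe1 are transcribed away from each other on chromosome 1 from a shared promoter. By the RefSeq starts nearest each other in that arrangement, they begin 216 bases apart, and their windows share 285 bases. Hspd1 has a second start in the table, which lies 95 bases on the other side of the Hspe1 start and whose window holds no match. Within the shared stretch stood 2 overlapping heat shock elements, the site of the heat shock factor HSF1, at chr1:55088059-55088071 (- strand) and chr1:55088064-55088076 (+ strand). The letters sought were GAANNTTCNNGAA on both strands. They are shown in the 250 bases before the start of Hspe1 (chr1:55087898-55088147, + strand), with the fixed letters of both elements in capitals.
Hspe1 upstream: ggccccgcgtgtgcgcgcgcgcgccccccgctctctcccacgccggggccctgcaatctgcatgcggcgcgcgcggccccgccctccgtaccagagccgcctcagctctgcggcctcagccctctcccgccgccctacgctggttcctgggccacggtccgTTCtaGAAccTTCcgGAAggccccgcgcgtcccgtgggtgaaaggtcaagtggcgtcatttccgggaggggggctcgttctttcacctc

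The heat shock letters occurred in 2 of 5 mitochondrial genes, Hspd1 and Hspe1, which hold the same sites and are not independent matches. They occurred in 2 of 38 genes of the cytosol and nucleus (Dnajb6 and Hsph1) and in 0 of 19 ER genes. Among all genes with a window they occurred in 179 of 27025 (0.662%). In Dnajb6 and Hsph1 the same site was reached from both RefSeq starts in the table, and that of Hsph1 lay after the start. Inducible genes such as Hspa1a and Hspa1b held no match in these letters, which says only that these letters were not in the window.

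The 22 genes of the cytosol and nucleus that were above background came from every family of that compartment except the cyclophilins. Hspa8, the constitutive Hsp70 (Hsc70), gave 5308 on replicate 1 and 4841 on replicate 2 (5074 ± 330.2, SD, n = 2). Of the inducible Hsp70 genes, Hspa1b gave 799.2 and 884.5 and was above background, and Hspa1a gave 301.8 and 236.4 and was not. Hspa1a and Hspa1b encode near-identical copies, so probe sets may not assign signal to either. Hspa1l and Hspa2, which are known from testis, gave 49.3 and 72.7, and 7.50 and 23.8, and Hspa14 gave 101.6 and 116.8. Hspa2 was the lowest of all 78 chaperone genes.

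Hsp110 proteins recharge Hsp70 with nucleotide. Hsph1 gave 1234 on replicate 1 and 1102 on replicate 2, and Hspa4 gave 751.7 and 818.1 in the brightest of its 5 sets. Its relative Hspa4l, at 322.1 and 232.3, was not above background. Hspbp1, another exchange factor, gave 988.1 and 1005 from a set of suffix f, which marks probes shared within a gene family. Hsp90aa1, the stress-inducible cytosolic Hsp90, gave 2502 and 2059 from its plain set and 48.7 and 20.4 in a set of suffix i.

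The J proteins of the cytosol and nucleus were led by Dnaja1, a general Hsc70 partner, at 2315 on replicate 1 and 2261 on replicate 2. Dnajb6, which holds aggregation-prone proteins, gave 1803 on both arrays in its brighter set and 311.6 and 261.8 in the other. Dnajb1 (Hsp40), the inducible partner of Hsp70, gave 505.1 and 674.6, and Dnaja2 gave 612.3 and 589.3. Of the 15 J proteins listed here, Dnaja1, Dnaja2, Dnajb1, Dnajb2, Dnajb6 and Dnajc8 were above background. The 9 others included the ribosome-associated Dnajc2 (391.3 and 322.0), Dnajc7, an adaptor between Hsp70 and Hsp90 (220.4 and 255.5), and Dnajb3 and Dnajb8, known from testis, which reached at most 111.7.

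The small heat shock proteins divided widely. Hspb8, a partner of BAG3 in selective autophagy, gave 4120 on replicate 1 and 4240 on replicate 2 from its plain set and 147.6 and 156.2 in a set of suffix f. Hspb2, known from muscle, gave 309.1 and 448.3 from a set of suffix g, which passed on replicate 2 only. The plain set of Hspb2 gave 13.4 on replicate 1 and 14.8 on replicate 2. Hspb1 (Hsp25 in mouse) gave 20.3 and 20.9.

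Of the 8 measured CCT subunits, which form the ring that folds actin and tubulin, 6 were above background. Cct5 gave 2082 on replicate 1 and 1882 on replicate 2, Cct4 gave 1676 and 1559, and Cct7 gave 1449 and 1333. Cct3 gave 1116 and 894.1, Cct8 gave 722.0 and 605.1, and Cct6a gave 683.1 and 717.9. The value of Cct6a came from a set of suffix f. Its other set, of suffix r, gave 21.7 on replicate 1 and 50.2 on replicate 2, below background on both. The 2 below background were Cct2, at 268.0 and 252.2, and Cct6b, the testis form of subunit 6, at 196.6 and 102.1. The subunits work in equal number in 1 complex, but signals of different probe sets do not measure their ratio. Tcp1, which encodes the first subunit and lies outside the symbol rule, gave 382.0 and 307.2.

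The cytosolic immunophilins include the Hsp90 co-chaperones of steroid receptors. Fkbp4 (FKBP52) gave 2738 on replicate 1 and 2704 on replicate 2, and Fkbp5 (FKBP51), a glucocorticoid-induced gene, gave 1522 and 1971. Fkbp1a (FKBP12), the small target of FK506, gave 1639 and 1339. Not above background were Ppid, the Hsp90-bound cyclophilin 40 (280.7 and 311.9), Ppie (98.8 and 62.7), Fkbp1b (301.0 and 315.0), Fkbp3 (224.4 and 226.5) and Fkbpl (137.4 and 67.4).

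Of the 6 genes of other places, Fkbp8 (FKBP38), which is anchored in the outer mitochondrial membrane, gave 4856 on replicate 1 and 5131 on replicate 2. Dnajc5, the cysteine string protein of secretory vesicles, gave 673.0 and 449.6. The 4 not above background were Dnajb13, known from sperm tails (379.4 and 378.3), Dnajc4 (405.6 and 318.6), Dnajc13, of endosomes (114.4 and 98.6), and Hspb11, a component of ciliary transport that carries a heat shock symbol (141.7 and 71.5).

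Probe sets of the same gene often disagreed. Of the 78 genes 20 had more than 1 set, and in 13 of these the sets lay on both sides of the threshold, against 32.6% of all 2073 named genes with more than 1 set. Among genes with at least 1 set above background the share was 13 of 14 for chaperones (92.9%) and 81.1% of 834 for all named genes. Fkbp4, Hspbp1, Cct3, Cct6a, Dnajc8, Dnajc3, Dnajc15 and P4hb were each read from a suffixed set while above background. The dimmest set of Dnajc3 gave 44.8 on replicate 1 and 8.0 on replicate 2, and the dimmer set of Cct5 gave 101.8 and 104.2, all not above background. Because the dim sets of the 13 genes did not pass the threshold on both arrays, no factor between sets is given. For Cct5, Dnajb6 and Canx, both sets were plain ones. Fkbp4 was the single gene of the 14 whose sets were all above background, at 893.8 ± 65.3 (SD, n = 2) in the dimmer set.

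**Figure D3:**
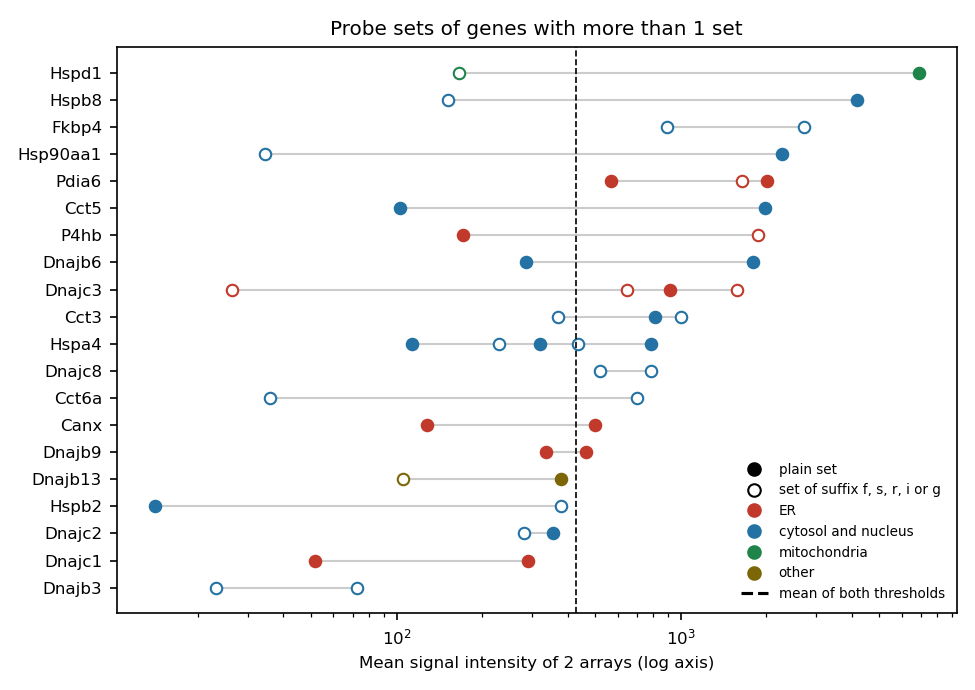
Mean signal intensity over the 2 liver arrays (log axis) of every probe set of the 20 chaperone genes with more than 1 set, a row for each gene. Filled points are plain sets and open points sets whose name carries a suffix letter, colours give the compartment, and the dashed line is the mean of the thresholds of both arrays. The sets of Dnajc3 have means from 26.4 to 1576, and those of Fkbp4 lie right of the line.

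The genes around the chaperones were counted from lists of the same pathways, and each count stands against the 31.3% of all named genes that were above background. The lists are short, and none is set apart from that share here. Of 5 measured ER stress sensors and factors 2 were above background: Xbp1, a transcription factor of the unfolded protein response, at 2301 ± 160.7 (SD, n = 2), and Atf4 at 1548 ± 107.6. Atf6 gave 248.1 on replicate 1 and 226.7 on replicate 2, and Ddit3 (CHOP), which is induced in severe ER stress, was the lowest at 48.9 ± 4.95. Of 10 genes of ER degradation and translocation 7 were above it, led by Herpud1, a component of ER-associated degradation, at 6545 ± 866.9. The lowest of the 10, Sec63, a membrane J protein of the translocon, was not above background at 238.3 ± 28.9. Of 14 other ER folding factors 7 were above it, led by Selenof, a selenoprotein that binds the glycoprotein folding sensor, at 4576 ± 439.7. The lowest was Hyou1, the ER Hsp110, at 4.80 ± 0.283.

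Of 15 cytosolic co-chaperones 7 were above background, led by Sgta (1802 ± 1.63), which handles tail-anchored proteins, and the lowest was the prefoldin subunit Pfdn1 (17.4 ± 5.52). Of 8 mitochondrial partners 5 were, led by the protease Clpp (1471 ± 58.1) and Grpel1, the exchange factor of the matrix Hsp70 (1349 ± 135.4). The lowest of the 8, Clpx, was not above background at 153.4 ± 15.3. The 3 measured genes of the heat shock factor list were Hsf2, Hsf4 and Hsbp1, and Hsf1 was not among them. Of these 3 genes 0 were above background on both arrays. Their brightest was Hsbp1, a binding protein of heat shock factors, at 433.9 on replicate 1 and 553.6 on replicate 2, and Hsf2 was the lowest at 67.4 and 13.4.

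The 2 arrays were then compared for the 44 chaperone genes above background. The log2 ratio of replicate 1 to replicate 2, after subtracting the median of all genes above background, had a median of 0.04 for chaperones, against 0 for all 2581 genes. The median size of the difference without its sign was 0.13 for chaperones and 0.13 for all genes. None of the 44 chaperone genes differed over 2-fold, against 0.116% of all genes, and none over 1.5-fold, against 1.82%.

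The single genes that differed most were Dnajc5 (673.0 on replicate 1 and 449.6 on replicate 2, just under a factor of 1.5), Hspd1 (1.44), Dnaja3 (1.38), Pdia5 (1.35), Dnajb1 (1.34), Canx (1.32) and Fkbp5 (1.30). Hspd1 stood apart from its partner Hspe1, which differed by a factor of 1.07, and from Hspa9, which differed by 1.00. By compartment, 10 of 14 ER genes, 14 of 22 genes of the cytosol and nucleus and 1 of 6 mitochondrial genes were higher on replicate 1, against 50% of all genes. The median log2 ratio was 0.09 for the ER, 0.05 for the cytosol and nucleus and -0.10 for mitochondria. With 1 array on each side, these differences have no replicate check.

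**Figure D4:**
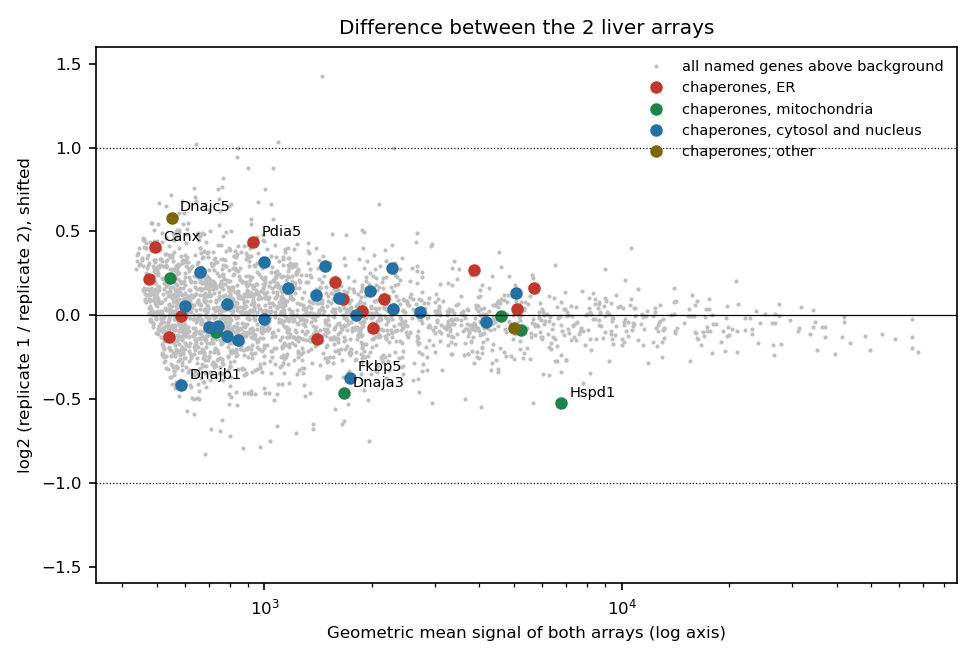
Log2 ratio of replicate 1 to replicate 2 after subtracting the median (y axis) against the geometric mean signal (log x axis) of the genes above background on both liver arrays. Grey points are all 2581 such genes, coloured points the 44 chaperone genes by compartment, and dotted lines mark a 2-fold difference. The chaperone genes lie within the dotted lines, with Dnajc5 the highest and Hspd1 the lowest.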

How the data were processed

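Mouse liver RNA was measured on 2 arrays. The deposited values are signal intensity on a linear scale, 1 per probe set and array, for 12488 probe sets. The authors' scaling, summary method and software are not stated in the labels. The mean signal after trimming 2% at each end was 499.8 on replicate 1 and 499.8 on replicate 2. The authors' own normalization could not be redone here, so low signals are the least certain. The platform annotation named 1 gene for 10833 non-control probe sets. All 78 member symbols matched a RefSeq table of GRCm38.p6 by gene identifier, unchanged. Each gene was represented by its brightest probe set (mean of log2 signals). The array values have no count depth, and their number limits the precision. Replicates held 16 identical values and were not copies.

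No test was run, since the labels give 1 group. The members and lists were chosen with earlier results of these data known. Named genes were the 6 brightest and the lowest of each compartment, those with probe sets on both sides of the threshold, those over 1.5-fold apart, and a fixed set; the remaining members are given by value or count. Compartments and families were assigned by hand from gene symbols. Alternatives were other thresholds (the 90th and 99th percentile), quantile normalization, log2(value + 32), no shift, no filter on dim sets, no suffixed sets, the mean of a gene's sets, and single arrays. The call of genes over 2-fold apart was also run on simulated data whose changes were set beyond 2-fold. That run checked only the code of the call, and the other steps were not run on simulated data. Python 3.11.15, numpy 2.4.6, pandas 2.3.3 and matplotlib 3.10.9 were used.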

Additional observations from a re-analysis of the deposited data

Results flagged for a closer look

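Probe sets that the annotation assigned to several genes stayed out of the comparisons, and 2 of them that name a chaperone gene carried signal above the background threshold on both arrays. The set of Ppia, cyclophilin A, and the predicted gene Gm9234 gave 21724 on replicate 1 and 21540 on replicate 2, with a mean of 21632. A set of Dnajc19, a J protein of the mitochondrial import motor, and its pseudogene gave 800.7 on replicate 1 and 1005 on replicate 2, with a mean of 902.7, and a second set of the same pair gave 92.5 and 43.0.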

How the results depend on the processing

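The count of chaperone genes above background was 44 and stayed between 41 and 47 with the 90th percentile threshold, the mean of probe sets, no suffixed sets and quantile normalization. With the 99th percentile threshold it was 28, of which 13 belonged to the cytosol and nucleus (22 otherwise), 10 to the ER (14), 4 to mitochondria (6) and 1 to other places (2). The share of all named genes above background was not counted under any of these alternatives. Without suffixed sets, 4 genes of other places were above background. The threshold was then set anew from the panel's plain sets. The panel lost bright sets such as that of Tnp1, at 1164.5 on replicate 1 and 1043 on replicate 2. Hspbp1, Dnajc15, Fkbp4, Cct6a, Dnajc8 and Dnajb3, which had suffixed sets only, also left. None of these genes is of other places. The total without suffixed sets, 43 of 72 genes, therefore holds partly different genes. With either array alone the count of chaperone genes ran from 44 to 47. The median percentile of 72.6 became 72.9 with the mean of probe sets and 72.2 without suffixed sets (72 genes), and ran from 73.0 to 73.3 with either array alone. These moves exceed the spread between the arrays' own medians, which is small. The median log2 difference stayed between 0.02 and 0.04 in all 6 alternatives. The count over 2-fold apart was 0, and 6 when genes not above background were included. The share of all named genes over 2-fold apart without that filter was not counted. In the other 5 alternatives the count stayed 0. No paired analysis was possible because the labels give a single group. The threshold rests on 82 genes, and the genes nearest to it were Dnajb1 and Dnajc10 above and Fkbp9 and Dnajb9 below.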

Other observations

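Transcripts of digestive enzymes of the exocrine pancreas were bright beyond the 4 marker genes given above. Of 9 further such genes, chosen after the values of those markers were seen, 8 were above background on both arrays. Ctrb1, chymotrypsinogen, gave 22100 on replicate 1 and 22327 on replicate 2 from a set of suffix r, and Clps, colipase, gave 3701 and 3051. The lipase relative Pnliprp1 gave 1403 and 1335, and syncollin, Sycn, a zymogen granule protein, gave 1139 and 1356. Pnliprp2 was the exception, at 151.9 and 209.7. A probe set shared by the pancreatic amylase genes gave 13930 and 14442, and a set shared by Try5 and Try4 gave 13184 and 11278. The islet genes Ins2 (189.3 and 206.8) and Gcg (51.6 and 32.8) were not above background. The source of these transcripts was not tested, nor was their part in the ER chaperone signals.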
